A study of Arabidopsis thaliana with 12 samples.

Results

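The histone H3-like gene AT1G13370 and AT3G20150, a gene of the kinesin motor family, were chosen as 2 Arabidopsis thaliana genes tied to dividing cells. They are 2 of the 691 genes that have a probe of their own, meaning one of the 692 probes, of 3439 in all, whose annotation lists exactly 1 gene. Each gene had 1 such probe, and no probe shared with other genes listed either of them. The choice was made with values of the toc90 and WT readings already known, so the level of each gene in the 2 groups is given as a description, without a test.

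Single-channel arrays were used to measure total RNA, in 6 readings of the wild type (WT) and 6 readings of the toc90 mutant, both in ecotype Columbia 0. Per the labels, toc90 plants are impaired in moving proteins across the outer envelope of the chloroplast. The labels used here name no tissue, age, growth condition or mutant allele, and they do not say whether readings came from separate plants, so the spread between readings may be technical. Toc90 is a receptor-like GTPase of the import machinery. No annotated probe listed the TOC90 gene (0 probes), so the labels could not be checked by it. None of the 14 marker genes looked for (dividing cells, leaf, root, pollen and guard cells) had a single-gene probe (0 of 14). The tissue and the share of dividing cells were therefore not checked by them.

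Histone H3, together with histones H4, H2A and H2B, forms the protein core around which DNA is wound. Plants carry several H3 genes: the H3.1 proteins are mostly built into chromatin while DNA is copied, and the H3.3 proteins also at other times, so H3.1 transcripts are high in cells that are copying DNA. Kinesins are motors that walk along microtubules with energy from ATP. Plants have many of them, and several work in the spindle that separates chromosomes or in the phragmoplast, the plant structure of microtubules that builds the new cell wall between daughter cells.

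The values of the array are the deposited intensities, which ran from 0 to 100 on a scale that is not stated, with 0 as the floor. Columns differed between the groups before any gene was looked at. Between 13.5% and 17.3% of probes were listed at 0 in the WT readings and between 20.3% and 33.4% in the toc90 readings. The median of a column lay between 0.151 and 0.157 in WT and between 0.0593 and 0.0687 in toc90. In WT, deviations from the group mean correlated over 1474 probes at 0.43 between readings 1 and 2, 0.50 between 3 and 4 and 0.52 between 5 and 6. The corresponding correlations were 0.13, -0.08 and 0.35 in toc90. Probes of a group are not independent replicates, and these pairs may not be independent readings.

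The histone H3-like gene AT1G13370 was among the brighter probes of WT and near the middle of all probes in toc90. In WT its deposited values were 0.893, 0.756, 0.876, 0.904, 0.666 and 0.635 for readings 1 to 6. In toc90 they were 0.013, 0.0739, 0.0914, 0.0501, 0.0467 and 0.0366. The groups did not overlap: the lowest WT reading was 6.95 times the highest toc90 reading. The WT mean was 0.788 ± 0.12 and the toc90 mean 0.0519 ± 0.0276 (SD, n = 6 each), so toc90 stood at 6.59% of WT. The WT mean was higher than that of 86.7% of the 3439 probes, and the toc90 mean higher than that of 45.3% of them.

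The readings of AT1G13370 varied less, relative to their mean, in WT than in toc90. The coefficient of variation was 15.2% in WT and 53.2% in toc90. Within WT, numbers 5 and 6 were the lowest, with a mean of 0.65 against 0.824 for numbers 1 and 2 and 0.89 for numbers 3 and 4. Within toc90, numbers 3 and 4 had the highest mean, 0.0707, against 0.0435 for numbers 1 and 2 and 0.0416 for 5 and 6. Reading 1 of toc90 was the lowest of the 12, at 0.013. Since the groups did not overlap, both toc90 readings necessarily lay below both WT readings in each of the 3 pairs of neighbouring numbers.

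**Figure D1:**
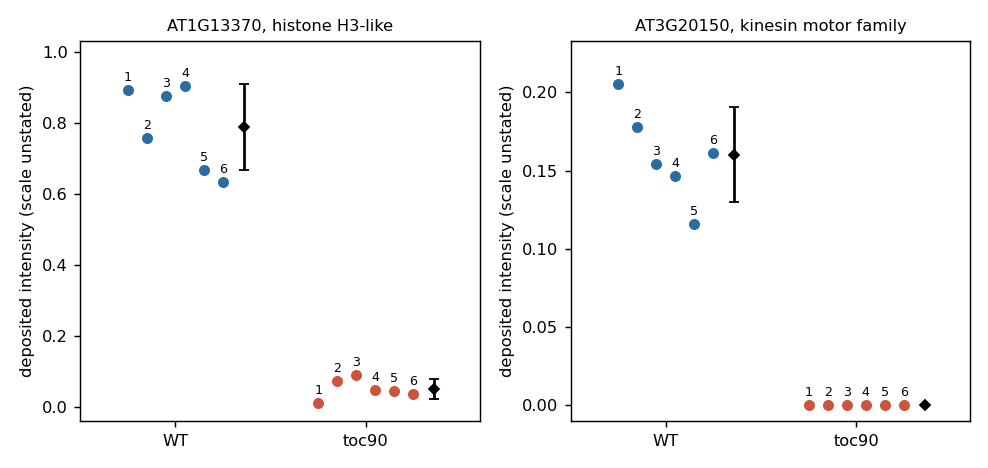
Deposited intensity (y axis, scale unstated) of AT1G13370 and AT3G20150 in each of the 6 WT and 6 toc90 readings. Numbers mark the readings, and black diamonds with bars are the mean ± SD. All 6 toc90 readings of AT1G13370 sit at 0.0914 or lower, below the lowest WT reading of 0.635, and all 6 toc90 readings of AT3G20150 are listed at 0.

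A limma fit over all probes used log2 values, quantile normalized, in which zeros were missing. The log2 difference of AT1G13370, toc90 minus WT, was -3.62 ± 0.32 (SE, n = 6 each). The median over all 2687 tested probes was -0.21, and relative to it AT1G13370 stood at -3.41. Its difference was the 18th lowest of the 2687. It was called lower at a Benjamini-Hochberg adjusted p under 0.05, as were 17.0% of all tested probes, and nothing is read from this call because the gene was chosen on these values. Groups without overlap, with toc90 the lower, were found for 19.9% of the 3439 probes.

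Probes as bright as AT1G13370 in WT were on the whole slightly lower in toc90. Another 355 probes had a WT mean within 1.5-fold of that of AT1G13370, and their toc90 mean was 77% of WT in the median. Of these, 352 were tested, with a median log2 difference of -0.37 and quartiles of -0.91 and 0.02. A difference as low as that of AT1G13370, or lower, was found for 6 of the 352. Differences also moved with probe ID. When IDs are grouped in blocks of 96 and the blocks in runs of 3, both AT1G13370 and AT3G20150 lie in the second place, where 23.2% of tested probes were called lower, against 10.2% in the first place and 18.3% in the third. Among the 78 tested probes of like WT level in that second place, the median was -0.57 and 4 were as low as AT1G13370. Groups without overlap, with toc90 the lower, were found for 84 of the 355 (23.7%) and for 30 of these 78 (38.5%). With columns quantile normalized within each place, AT1G13370 stood at -3.41, or -3.17 relative to the median of all probes. What these ID places correspond to on the array is not stated, and their part in the remaining difference was not tested.

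**Figure D2:**
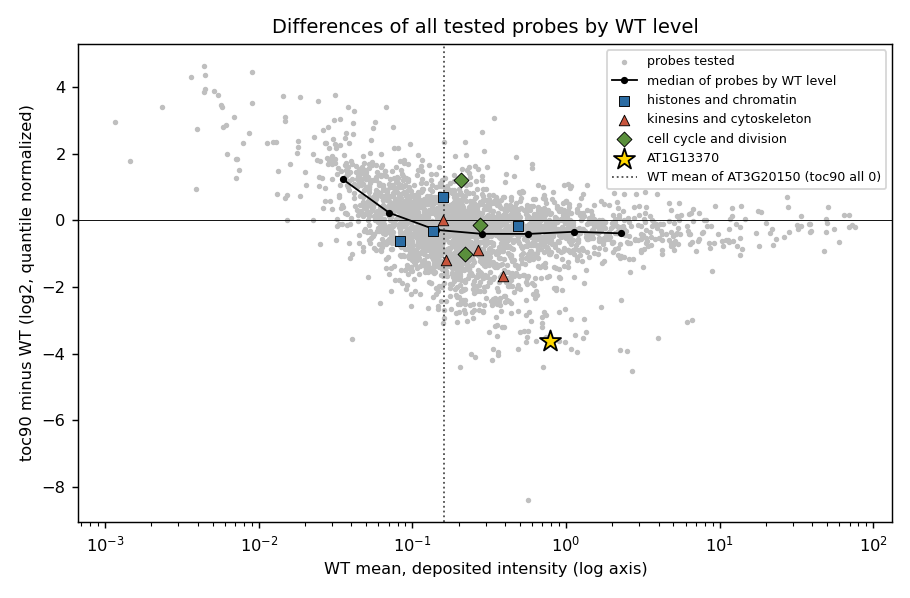
Log2 difference, toc90 minus WT (y axis, quantile normalized, zeros missing), against the WT mean in deposited intensity (log x axis) for the tested probes. The line joins the medians of probes in steps of WT level. AT1G13370 (star) lies at -3.62 where the medians are near -0.4. The listed chromatin, cytoskeleton and cell cycle genes lie between -1.66 and 1.19, and the dotted line marks the WT mean of AT3G20150, which has no log2 difference.

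The kinesin gene AT3G20150 was a probe of middling brightness in WT and was listed at the floor in toc90. In WT its deposited values were 0.205, 0.178, 0.154, 0.147, 0.116 and 0.161 for readings 1 to 6. In toc90 all 6 readings were listed at 0. The groups therefore did not overlap, and the lowest WT reading was 0.116. The WT mean was 0.16 ± 0.0302 (SD, n = 6), higher than that of 51% of the 3439 probes, with a coefficient of variation of 18.8%. Numbers 1 and 2 of WT had the highest mean, 0.192, against 0.151 for numbers 3 and 4 and 0.138 for 5 and 6. No fold is given against a group listed at 0, and the log2 fit, which needs at least 3 values above 0 in each group, did not test this probe.

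A listing at 0 does not fix how low the transcript was in toc90: how zeros arose is not stated, and more probes were at 0 in toc90. Another 868 probes had a WT mean within 1.5-fold of that of AT3G20150, with a toc90 mean of 44.8% of WT in the median. At least 1 toc90 reading was listed at 0 for 487 of them (56.1%). All 6 were listed at 0 for 9 of them (1.04%). In the second place of the ID blocks, 294 probes had a like WT level, of which 197 (67%) had a toc90 reading at 0 and 4 (1.36%) had all 6 at 0. In the same block of 96 IDs as AT3G20150, 15 of the 63 other probes (23.8%) were listed at 0 in all 6 toc90 readings, against 76 of the 1168 other probes (6.51%) of the second place as a whole. None of those 15 was above 0 in all 6 WT readings (0 of 15), whereas AT3G20150 was chosen with that pattern known. All 6 toc90 readings lay under the lowest WT reading for 5 of the 63 (7.94%), against 319 of the 1168 (27.3%). Among probes of like WT level this held for 292 of the 868 (33.6%). In the second place it held for 147 of the 294 of like WT level (50%). The part of the block in the listing at 0 was not tested.

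Over the whole array, 21 of 3439 probes (0.611%) were above 0 in all 6 WT readings and at 0 in all 6 toc90 readings, and 0 probes showed the opposite. AT3G20150 had the 3rd highest WT mean of the 21, whose median was 0.0965 and highest 0.265. Besides AT3G20150, the second place of the ID blocks held 1168 probes of the array, and the other places together held 2270. Of the 21, 10 lay in the second place, 5 in the first and 6 in the third. The other single-gene probes among them, picked out after their values had been seen, were AT3G50350 (WT mean 0.204 ± 0.0917), AT2G47360 (0.107 ± 0.0272) and AT1G10830 (0.0895 ± 0.0496; SD, n = 6 each). AT1G10830 is Z-ISO, an isomerase of carotenoid synthesis.

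Other histone H3 genes gave a way to see AT1G13370 beside its family. Whether AT1G13370 itself is of the H3.1 or the H3.3 kind is not stated here, so its level is not read as that of either. Single-gene probes were present for 2 H3.1 genes, AT1G09200 and AT5G65360. H3 genes are near-identical copies, and signal from one may reach the probe of another, so the gene behind each value is uncertain. AT1G09200 had WT values of 0.18, 0.182, 0.0507, 0.0707, 0.145 and 0.186, and toc90 values of 0.0534, 0.0716, 0, 0, 0.0272 and 0.0388. Readings 3 and 4 were the lowest of both groups, and 4 of 6 toc90 readings lay below every WT reading. AT5G65360 was dimmer, at 0.0835 ± 0.0122 (WT) and 0.0315 ± 0.0307 (toc90, SD, n = 6 per group), with 5 of 6 toc90 readings below every WT reading and reading 3 of toc90, at 0.0819, inside the WT range.

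Neither H3.1 gene passed the test over all probes. The log2 difference was -0.32 ± 0.46 for AT1G09200 (SE, limma adjusted p = 0.644) and -0.62 ± 0.57 for AT5G65360 (SE, limma adjusted p = 0.457). These fits left out 2 toc90 readings of AT1G09200 and 1 of AT5G65360 that were listed at 0. On deposited log2 values without normalization both were called lower, at a limma adjusted p of 0.0314 and 0.0496, as were 33.3% of all probes, and over the 8 alternatives that could be fitted the adjusted p ran to 0.963 and 0.868. The difference of AT5G65360 had no settled direction: it was -0.03 without toc90 reading 6 and 0.11 with an offset. In deposited units toc90 stood at 23.5% of WT for AT1G09200 and 37.7% for AT5G65360, against 6.59% for AT1G13370. The median over probes was 44.0% for WT means of 0.1 to 0.2 and 45.7% for those of 0.05 to 0.1. On the log2 scale of the fit, the medians of these 2 steps were -0.28 and 0.22.

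Another 4 probes list several genes each, all of them H3 genes, and no single gene is named from them. They were added after the annotation had been read. The probe listed for several H3.1 genes was 0.285 ± 0.0778 (WT) and 0.119 ± 0.0597 (toc90, SD, n = 6 per group). Its groups did not overlap, with toc90 the lower, as for 19.9% of all probes. It did not pass (-0.86 ± 0.40, SE, limma adjusted p = 0.138). The brightest, listed for 3 H3.3 genes, was 0.989 ± 0.22 in WT and 1.06 ± 0.326 in toc90, with overlapping groups (-0.07 ± 0.16, SE, limma adjusted p = 0.796). It turned to 0.77 and was called with median scaling (limma adjusted p = 0.00613), as were 16.0% of all probes in that direction. A dimmer probe listed for 2 H3.3 genes was 0.153 ± 0.048 in WT and 0.0169 ± 0.0214 in toc90 and was called lower (-1.97 ± 0.62, SE, limma adjusted p = 0.0435, 2 readings at 0 left out). After averaging readings 1 and 2, 3 and 4, and 5 and 6, which left 3.76% of all probes called, its adjusted p was 0.0788. The H3.3 probes thus differed from each other, although both of the genes on the dimmer probe are also listed on the brighter one. The probe of other H3 variants was near the floor, at 0.0518 ± 0.00735 and 0.04 ± 0.0559, with 2 toc90 readings at 0 and 1 at 6.76e-05.

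**Figure D3:**
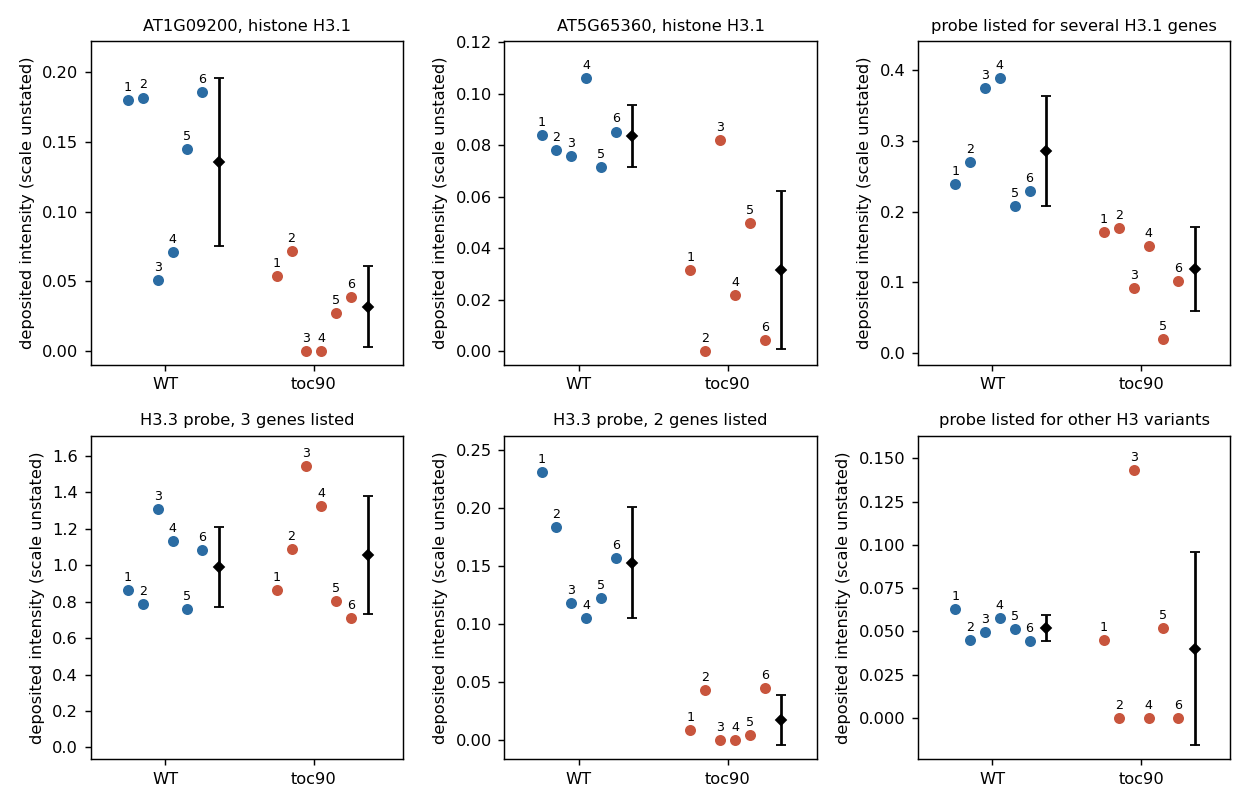
Deposited intensity (y axis, scale unstated) of the other histone H3 probes in each WT and toc90 reading, with reading numbers and the mean ± SD (black). The brightest H3.3 probe has overlapping groups around 1. The dimmer H3.3 probe and the probe of several H3.1 genes have all 6 toc90 readings below every WT reading, as do 19.9% of all probes.

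Other kinesin and cytoskeleton genes had WT means of at most 0.39. Of the 6 genes of this list, 4 were tested, 2 were called lower and 0 higher, beside 17.0% lower and 6.92% higher of all probes. The median log2 difference of the 4 was -1.03 against -0.21 over all probes. Probes with a WT mean of 0.1 to 0.2 had a median of -0.28, and those of 0.2 to 0.4 a median of -0.41. Groups without overlap, with toc90 the lower, were found for 3 of the 6 genes, beside 19.9% of all 3439 probes. Among the 868 probes with a WT mean within 1.5-fold of that of AT3G20150, the share was 33.6%. Called were AT3G44050, a kinesin related to those of the phragmoplast, and AT3G43610, a component of the gamma-tubulin complex that starts microtubules. AT3G44050 had WT values of 0.377, 0.35, 0.431, 0.388, 0.364 and 0.428 and toc90 values of 0.157, 0.175, 0.0839, 0, 0.0207 and 0. The groups did not overlap, and numbers 1 and 2 were the highest of toc90. It fell by 1.66 on the log2 scale (SE 0.45, limma adjusted p = 0.0259, the 2 zeros left out).

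AT3G44050 was not called with neighbouring numbers averaged, at -1.98 and an adjusted p of 0.125. Over 8 alternatives its adjusted p ran from 0.0085 to 0.194, and without WT reading 6 and without toc90 reading 3 it was 0.054 and 0.0586. AT3G43610 was 0.166 ± 0.0389 (WT) and 0.0222 ± 0.0184 (toc90, SD, n = 6 per group), with no overlap, and fell by 1.19 on the log2 scale (SE 0.27, limma adjusted p = 0.0116, 2 zeros left out). With neighbouring numbers averaged it stood at -1.19 with an adjusted p of 0.147, and over 8 alternatives it ran from 0.000175 to 0.224.

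The other kinesins did not pass. AT2G37420, of the family that slides spindle microtubules apart, was 0.266 ± 0.0374 (WT) and 0.0885 ± 0.0639 (toc90, SD, n = 6 per group), without overlap between the groups (-0.88 ± 0.37, SE, limma adjusted p = 0.115). AT1G21730, a kinesin with a mitochondrial targeting signal, was 0.158 ± 0.037 and 0.0836 ± 0.0677 with overlapping groups (0.02 ± 0.31, SE, limma adjusted p = 0.967). AT4G14330, a kinesin of the phragmoplast, and TRM31, a protein of the TON1 recruiting motif family, were listed at 0 in 4 and 5 of the 6 WT readings and were not tested. Of the 5 single-gene kinesin probes, AT3G20150 was the one listed at 0 in every toc90 reading and above 0 in every WT reading, a pattern known when it was chosen.

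Of the 4 chromatin genes, the H3.1 genes included, 0 were called in either direction by limma, at a median of -0.25. Over all probes, 17.0% were called lower and 6.92% higher, at a median of -0.21. An unadjusted p under 0.05 was found for 0 of the 4, and its share over all probes was not counted. With 4 genes, nothing is read from these counts. On deposited values, the H3.1 genes were called as stated above. The chromatin remodeller AT1G05490 was 0.49 ± 0.0584 in WT and 0.432 ± 0.207 in toc90 (-0.17, limma adjusted p = 0.702). The jumonji family gene AT2G38950 was 0.157 ± 0.0414 and 0.142 ± 0.0918 (0.70, limma adjusted p = 0.248), and without toc90 reading 3 it was called higher (1.10, adjusted p = 0.0186). Of the 4 cell cycle genes, 3 were tested, 1 was called higher and 0 lower by limma, beside the same shares over all probes. At an unadjusted p under 0.05, 1 was lower. The called gene was AT4G21820, which encodes an abnormal spindle-like protein, at 0.207 ± 0.0211 (WT) and 0.366 ± 0.108 (toc90, SD, n = 6 per group). Of its 6 toc90 readings, 5 lay above every WT reading and reading 3 lay below them. It rose by 1.19 (SE 0.28, limma adjusted p = 0.00966), and the adjusted p was 0.116 with neighbouring numbers averaged and 0.0601 with quantile normalization within places of the ID blocks, in a range of 0.00121 to 0.116 over 9 alternatives.

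TCP15 (AT1G69690), a transcription factor that acts on cell growth and division, was 0.219 ± 0.0463 in WT and 0.0699 ± 0.0328 in toc90 with no overlap, and lay just outside the threshold (-1.02 ± 0.35, SE, limma adjusted p = 0.0527). It was called in 4 of 9 alternatives, with an adjusted p from 0.00141 to 0.259. AT1G78790, a histone-fold protein of DNA repair, did not pass (-0.15, limma adjusted p = 0.638). FBL17 (AT3G54650), an F-box protein that removes inhibitors of the cell cycle, was 0.0529 ± 0.0192 in WT, and with 4 zeros among 6 toc90 readings it was not tested. Over the 3 lists, 11 of 14 genes were tested, of which 2 were called lower, 1 higher and 8 not, with a median of -0.32. These shares, 2 and 1 of 11, stand beside 17.0% called lower and 6.92% called higher of all probes. Groups without overlap, with toc90 the lower, were found for 5 of the 14, beside 19.9% of all probes.

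**Figure D4:**
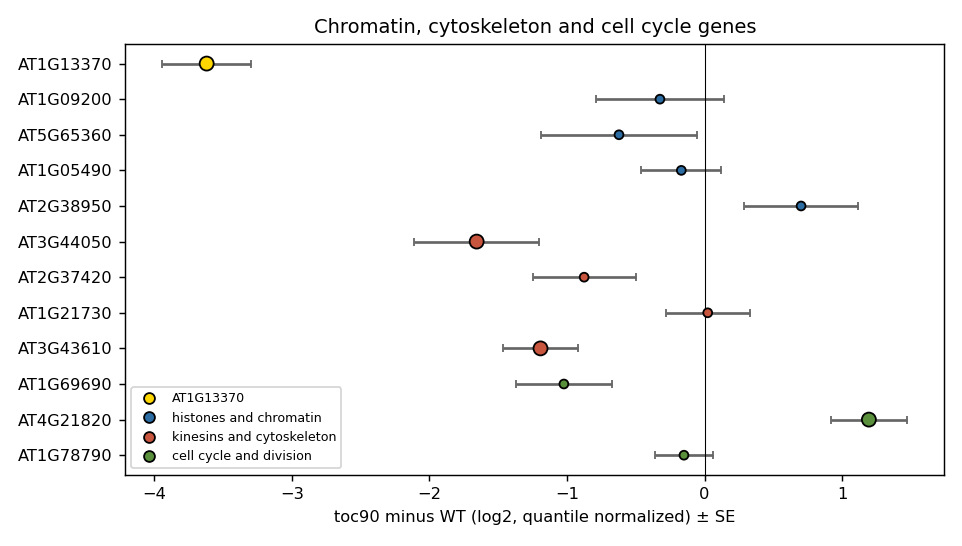
Log2 difference, toc90 minus WT, with its SE (x axis, quantile normalized, zeros missing) for AT1G13370 and the 11 tested genes of the 3 lists. Large points were called at a limma adjusted p under 0.05. AT1G13370 lies at -3.62, AT3G44050 at -1.66 and AT3G43610 at -1.19, and AT4G21820 lies at 1.19.

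The readings of a group were also compared without the difference between groups. Deviations from the group means were correlated over the 12 readings, on the log2 scale with an offset of 0.0274 added, with 476 single-gene probes that had at most 2 zeros. Columns share their scaling and neighbouring numbers may share an extract, so these correlations describe the readings and carry no test. For AT1G13370 the 3 highest were AT1G22850 (r = 0.85), AT2G31800 (0.79) and AT1G30700 (0.77), against a median of 0.05 over the 476. AT1G22850 was at 0.166 ± 0.0845 in WT and 0.0789 ± 0.0719 in toc90, AT2G31800 at 0.948 ± 0.142 and 0.881 ± 0.265, and AT1G30700 at 0.41 ± 0.105 and 0.228 ± 0.0688 (SD, n = 6 each).

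For AT3G20150, whose toc90 readings do not vary, the 3 highest were PAC (r = 0.62), NTRC (0.61) and AT2G04540 (0.57), against a median of 0.01. Its pattern rests on the 6 WT readings, over which r was 0.74, 0.79 and 0.97. In toc90 these 3 genes were not near the floor, at 0.475 ± 0.0542 for PAC, 0.527 ± 0.09 for NTRC and 0.508 ± 0.064 for AT2G04540 (SD, n = 6 each). Between AT1G13370 and AT3G20150 themselves, r over the 6 WT readings was 0.42.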

How the data were processed

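Total RNA was measured in 12 readings, grouped by their titles into 6 WT and 6 toc90. The deposited values are array intensity values. How the authors scanned, scaled or corrected this intensity is not given in the sources used here. No column without a sample was left (0 unused). Of 3439 probes, 692 listed 1 gene, 870 several and 1877 are unnamed here. Of the 692, 690 matched a reference table of assembly TAIR10.1, used for names only. Roles of genes that this table does not describe are general background.

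Zeros were set to missing, values put on the log2 scale and quantile normalized, and probes with at least 3 values in each group fitted with limma 3.58.1 in R 4.3.3 (lmFit, eBayes, two-sided). Calls had a Benjamini-Hochberg adjusted p under 0.05. The fit was tested on simulated data with large changes and with noise that was capped and independent between readings. That setting is simpler than these data, so it does not give their error rates. Deposited values kept their zeros. Precision is limited by how many arrays there were and by the floor. The 2 genes, the 3 lists and the tests were chosen with earlier results of these data known. Named were the 2 genes, called list members, up to 4 others per list with the highest means, and the 3 probes most correlated with each gene. TRM31 and other list members beyond that were named to account for all 14. Alternatives covered scaling, zeros, an offset, a filter, the number as a block, averages and left-out readings. Figures were drawn with matplotlib 3.10.9.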

Additional observations from a re-analysis of the deposited data

Results flagged for a closer look

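In 5 of the 39 sets of 6 readings examined, 1 reading stood far apart. Chance gives about 1 in 20 for sets without ties, a rate that does not hold for the sets of AT4G14330 and TRM31, which have 4 or 5 zeros. None of the 5 sets belonged to AT1G13370 or AT3G20150. Reading 4 of WT for the kinesin gene AT4G14330 was 0.00599, with the nearest at 0.00175, and reading 3 of toc90 was 0.0358, with the nearest at 0.0122. Reading 5 of WT for TRM31 (AT5G58630) was 0.00506, with the other readings at 0. Reading 3 of toc90 for AT4G21820 was 0.153, with the nearest at 0.366. Reading 3 of toc90 for the probe of other H3 variants was 0.143, with the nearest at 0.0517.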

How the results depend on the processing

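The gene AT1G13370 was chosen with its values known and its groups did not overlap, so an unchanged sign is no support. AT1G13370 was lower in toc90 in all 9 alternatives and with each of the 12 readings left out in turn (-3.72 to -3.29). It moved by more than the spread between readings with an offset, to -2.77 (-2.83 once the median over all probes is taken off), which shrinks differences of dim values by construction. The number as a replicate block left it at -3.62. AT3G20150, toc90 minus WT in deposited units, was -0.16, and -0.131 with median scaling, -0.16 with the block or averages, and -0.169 to -0.151 with a reading left out. On the log2 scale it was -2.19 with an offset and -14.8 where zeros took the lowest positive value, so its size is set by the constant. Cyclic loess, values as deposited, the filter and quantile normalization within ID classes gave it no value, since zeros were missing. Neither gene had another single-gene probe.

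For the following the cause was not tested, except that loess leaves out probes with a zero. Against 457 lower and 186 higher calls over all probes, of 2687 tested, lower calls were 173 with cyclic loess (of 1474 tested, those without zeros), 896 with values as deposited, 116 with zeros raised to the lowest positive value (of 3439), 300 with the replicate block and 75 with averages (of 2818). Higher calls were 431 with median scaling, 85 as deposited, 284 with an offset (of 3439), 118 with the replicate block and 31 with averages. The median of all probes moved from -0.21 to 0.01 (median scaling), -0.05 (loess), -0.72 (as deposited), -0.08 (raised zeros) and 0.06 (offset). Of the 14 listed genes, lower calls went from 2 to 0 with raised zeros or averages, to 7 as deposited and to 1 with the replicate block, which was TCP15, AT3G44050 and AT3G43610 being at limma adjusted p of 0.0967 and 0.0765. Loess fitted 4 of the 14, neither AT3G44050 nor AT3G43610 among them, and called 0 lower. Lower calls were 1 to 3 with a reading left out: 1 without WT reading 6 or toc90 reading 3, where AT3G44050 was lost, and 3 without toc90 reading 5 or 6. The 1 higher call (AT4G21820) went to 0 with averages and within ID classes, and was 1 to 2 with a reading left out, AT2G38950 being the second without toc90 reading 3. Same-numbered readings correlated across groups at 0.08 to 0.25, all positive. As not all were over 0.1, the number was left out of the main fit and used only in the replicate block.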
